A study of Mus musculus with 39 samples.

Results

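The genes described here are the MHC class II genes of the mouse and Ciita, the gene of the coactivator that switches them on. The 9 genes are Ciita, Cd74, H2-DMa, H2-DMb2, H2-Oa, H2-Ob, H2-Aa, H2-Ab1 and H2-Eb1. They were taken by name from the array annotation, and the list was chosen with earlier results of these data known. They are 9 of 18193 genes measured. Together they had 19 of the 34945 probe sets that name a single gene, and the probe set with the highest mean stood for each gene. A further 3 probe sets name a member together with another gene and were not used for gene levels.

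The series holds RNA from 39 lymphomas, 1 array each, all in 1 group with the genotype Eµ-myc. In these mice the Eµ enhancer of the immunoglobulin heavy chain locus, active in B lineage cells, drives a Myc transgene. Tumours were taken when the animals showed lymphoma or illness and were frozen before RNA was isolated from the whole tissue. No normal tissue, treatment or outcome is given, and the labels do not say which strain or age was used or whether each tumour came from a separate mouse. The p-values below therefore measure only the spread between these samples, which are named by the number in their label. In whole tissue, fewer cells of a type and less RNA per cell cannot be told apart.

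MHC class II molecules present peptides from engulfed and endosomal proteins to CD4+ T cells, and are made mainly by B cells, dendritic cells and activated macrophages. Ciita does not bind DNA itself. It is recruited to a conserved promoter module, the W, X and Y boxes, by the RFX complex, CREB family factors and NF-Y, and interferon gamma induces it in many cell types. Cd74, the invariant chain, fills the groove of new class II molecules. H2-DM then exchanges the remaining Cd74 fragment for peptide, and H2-O, known chiefly from B cells and some dendritic cells, inhibits H2-DM.

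The sequences that link these genes are those just upstream of their starts, so the windows in which the Y box lies are shown. RefSeq promoters of the assembly GRCm38.p6, reaching from 250 bases before to 50 bases after a start, were matched for 6 of the 9 genes, with 2 starts for H2-DMa. The letters GATTGG, the inverted CCAAT sequence that NF-Y binds, were searched on either strand, and the letters GCAAC, the first bases of many X boxes, were searched 10 to 40 bases before it on the same strand. At least 1 promoter of all 6 matched genes held GATTGG, against 16.1% of 32851 promoters. The pair with this spacing was present in 4 of the 6 genes, against 0.502% of all promoters (165). Each window below holds 100 bases, from 120 to 21 bases before the start, read 5′ to 3′ on the gene's strand, with both motifs in capitals where they lie on that strand.
H2-Aa (chr17:34287844-34287943, minus strand): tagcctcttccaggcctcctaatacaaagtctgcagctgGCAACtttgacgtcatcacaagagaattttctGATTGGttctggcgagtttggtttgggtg
H2-Eb1 (chr17:34305747-34305846, plus strand): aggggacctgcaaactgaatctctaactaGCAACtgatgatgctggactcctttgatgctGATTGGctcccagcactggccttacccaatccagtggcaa
H2-Ob (chr17:34238785-34238884, plus strand): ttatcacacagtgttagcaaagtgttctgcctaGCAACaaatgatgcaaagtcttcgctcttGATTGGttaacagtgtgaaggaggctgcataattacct
H2-Oa (chr17:34092259-34092358, plus strand): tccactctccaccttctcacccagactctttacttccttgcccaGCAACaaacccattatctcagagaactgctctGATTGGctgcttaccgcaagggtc
H2-DMb2 (chr17:34145129-34145228, plus strand): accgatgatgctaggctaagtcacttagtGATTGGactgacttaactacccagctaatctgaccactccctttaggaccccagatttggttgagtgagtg
In H2-Aa, 27 bases separate the motifs and GATTGG begins 49 bases before the start. H2-Eb1 has 26 bases between them, H2-Ob 24 and H2-Oa 27, so the spacing varied by 3 bases among the 4 genes. The H2-Eb1 window holds GATTGG once more on the other strand, in lower case. GATTGG begins 91 bases before the start of H2-DMb2, without GCAAC at that spacing. At 1 of its 2 starts H2-DMa holds GATTGG 199 bases before the start, outside such a window. A match of letters is a description of the sequence and not a measured site.

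The class II genes were among the more variable genes of these tumours. An SD of at least 1 on the log2 scale was reached by 8 of the 9 members and by 7.33% of all genes (1333 of 18193). The exception was H2-Aa, with an SD of 0.95 in the probe set used and of 1.10 to 1.47 in its other ones. H2-DMa had an SD of 1.39 in the probe set used and of 0.87 in its other, dimmer one. The SDs of the 9 members were larger than those of 91.7% (H2-Aa) to 99.1% (H2-DMb2) of genes. Levels below are log2 values, and since each probe set binds with its own strength, only differences across tumours are compared, never the levels of 2 genes.

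Ciita had a mean level of 7.43 ± 1.17 (SD, n = 39), with a lowest value of 5.20, a median of 7.59 and a highest value of 10.28. It was lowest in tumours 39, 16 and 8 and highest in tumours 18, 27 and 2, and the distance from lowest to highest was 33.9-fold. The tumours formed no separate clusters in Ciita, nor in any of the other 8 members, when 2 components were fitted against 1.

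Of the genes that build the presenting molecules, H2-Aa, the alpha chain of H2-A, had the smallest spread in the probe set used. It ran from 9.92 over a median of 12.39 to 14.07, or 17.8-fold. Other probe sets of H2-Aa spread more, the dimmest from 5.20 to 11.65. The partner of H2-Aa, the beta chain H2-Ab1, ran from 9.54 over 11.56 to 14.16 (24.6-fold). H2-Eb1, the beta chain of H2-E, ran from 9.04 over 11.92 to 13.96 (30.2-fold). All 3 were highest in tumour 2 and next highest in tumour 1. Tumour 16 was lowest in H2-Aa and H2-Eb1, and tumour 8 was lowest in H2-Ab1 with tumour 16 next, at 9.56.

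Cd74 ran from 8.92 over a median of 11.96 to 14.07 (35.5-fold), again from tumour 16 to tumour 2. In the probe sets used, the H2-DM chains varied more widely. H2-DMa ran from 6.88 over 9.80 to 12.77 (59.5-fold) between the same pair of tumours. Its other, dimmer probe set spread less, from 4.76 over 5.71 to 8.22. H2-DMb2 had the largest SD of the 9 genes, 1.76 around a mean of 9.89, with a lowest value of 6.49 in tumour 8, a median of 10.04 and a highest value of 12.97 in tumour 1 (89.5-fold).

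The H2-O chains, the inhibitor of H2-DM, varied as widely. H2-Oa ran from 5.66 in tumour 6 over a median of 8.11 to 12.14 in tumour 2 (89.0-fold). Its next highest value was 11.07, in tumour 1. H2-Ob ran from 4.84 in tumour 8 over a median of 9.20 to 11.55 in tumour 1 (105-fold). A gap lay above its 3 lowest tumours, 8, 6 and 23 at 4.84, 4.86 and 5.19, since no other tumour had H2-Ob under 7.58.

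Probe sets of the same gene followed each other across tumours. Of the 5 members with more than 1 probe set, the correlation with the one used as the gene level was at least 0.904 (the dimmest of Ciita), at least 0.990 in H2-DMb2 and at least 0.995 in H2-Ab1. Cd74, H2-Oa, H2-Ob and H2-Eb1 had 1 probe set each. For H2-Ob, a probe set shared with a predicted gene gave a correlation of 0.956 with the gene level and the same 3 lowest tumours.

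**Figure D1:**
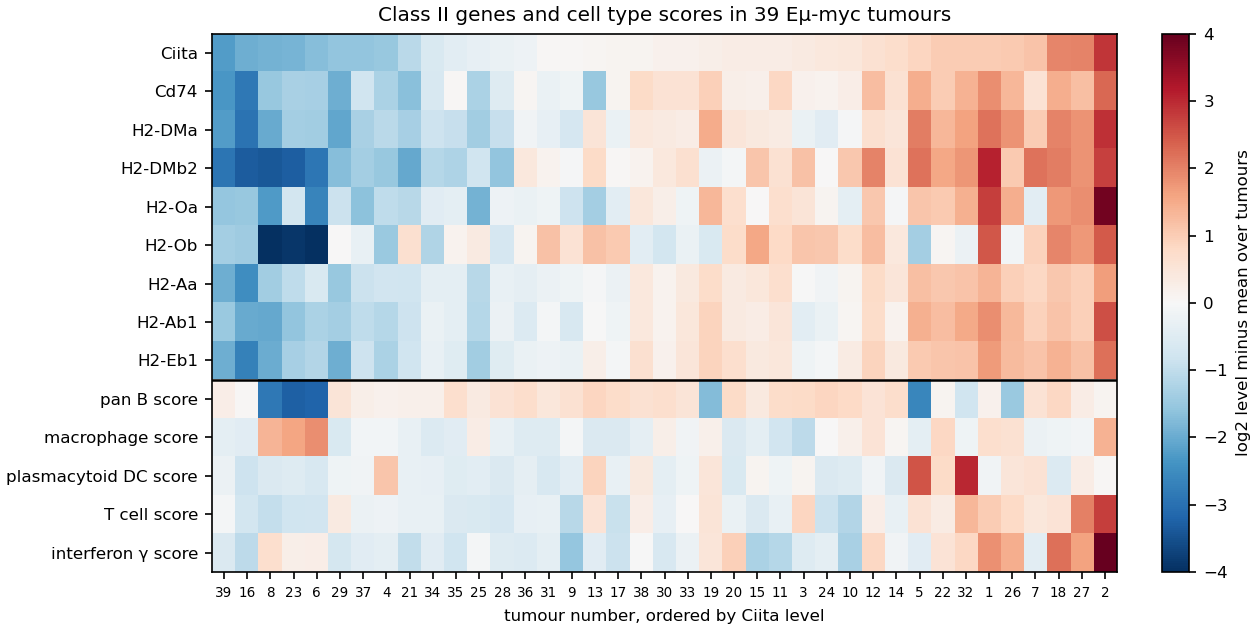
Log2 level minus its mean over the 39 tumours for the 9 genes, and 5 cell type or response scores below the line, with 1 column per tumour ordered by Ciita. Most class II rows change from blue at low Ciita to red at high Ciita, while H2-Ob is deepest blue in tumours 6, 8 and 23, where the pan B score lies between -3.28 and -2.86.

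The 9 genes rose and fell together in the tumours at either end. Averaged over the 9 genes as log2 minus each gene's mean, tumour 2 stood highest at 2.62, followed by tumour 1 at 2.04, tumour 18 at 1.64 and tumour 27 at 1.49. In each of these 4 tumours all 9 genes were among the 10 highest. At the other end stood tumour 16 at -2.36, tumour 8 at -2.30, tumour 39 at -2.01, tumour 6 at -1.91 and tumour 23 at -1.81. All 9 genes were among the 10 lowest in tumours 4, 6, 8, 16 and 39, and in tumour 23 this held for 8 of the 9.

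The label of lymphoma in Eµ-myc mice was checked against pan B cell genes, which were low in some tumours. A score over 11 pan B cell genes (mean of log2 levels, each minus its mean) split the tumours into 33 and a lower part of 6, tumours 5, 6, 8, 19, 23 and 26. Pou2af1, a B cell coactivator, lay between 10.59 and 12.98 in the 33, between 4.01 and 6.81 in tumours 5, 19 and 26, and between 3.10 and 5.09 in tumours 6, 8 and 23. Cd79a, a chain of the B cell receptor complex, lay at 7.37 to 10.13, 4.83 to 6.09 and 3.95 to 4.18 in the same 3 sets. Tumours 6, 8 and 23 also had the macrophage marker Adgre1 at 12.55 to 13.12, above its highest value of 9.90 in the 33, and Itgam at 11.26 to 12.01 against at most 8.38. In tumours 5, 19 and 26, Siglech, a marker of plasmacytoid dendritic cells, lay at 9.52 to 11.30 against a median of 5.92 and a highest value of 12.54 in the 33. Other markers of these cells were not high in all 3, with Cox6a2 from 6.31 to 12.17 and Ccr9 from 5.31 to 10.20.

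Low class II levels occurred both among the 33 tumours and in the lower pan B part. Tumours 16 and 39, at the bottom for most members, belong to the 33 and had pan B scores of 0.036 and 0.25. Both were below the median of the 33, 0.53, in a range from -0.81 to 0.86. Tumours 6, 8 and 23 had pan B scores of -3.22, -2.86 and -3.28 and the macrophage scores 1.86, 1.36 and 1.58. In those 3 tumours Ciita lay at 5.53 to 5.73 and H2-DMb2 at 6.49 to 7.01, with 2 of the 33 below the highest of the 3 in each gene. H2-Aa at 11.03 to 11.81 was less extreme, with 7 of the 33 below. H2-Oa lay at 5.66 and 6.03 in tumours 6 and 8, under the lowest value of the 33, 6.39. In tumour 23 it lay at 7.54, with 9 of the 33 below. For H2-Ob, 0 of 33 lay below the highest of the 3.

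Tumours 5, 19 and 26 showed another arrangement, with low pan B cell scores and high levels of most class II genes. The precursor B score was low in them too, at -1.22 to -1.16, against a lowest value of -0.86 in the 33. Not all B lineage scores were low in them. The mature B score lay at -0.76 to 0.0015, against a median of -0.124 in the 33. Its genes of largest SD differed. Ms4a1 lay at 5.63 to 11.18 and Fcmr at 5.32 to 6.48, below their medians of 12.41 and 8.04 in the 33. Ltb lay at 7.85 to 11.80, against a median of 7.99. The plasma cell score lay at 0.049 to 1.03, against a median of -0.105. H2-Aa lay at 13.14 to 13.62, above 25 of the 33, and H2-DMa at 11.32 to 11.89, above 28 of the 33. Cd74 lay at 12.75 to 13.22. H2-DMb2 was mixed, at 9.66 to 12.05 against a median of 10.30 in the 33. H2-Ob lay below the median of the 33, 9.65, in all 3 tumours, at 7.71 to 8.97, while Ciita was 7.68 to 8.48 against a median of 7.59. These sets of 3 tumours were formed after seeing B cell and myeloid genes, so the values are a description.

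Every pair of the 9 genes was correlated across the 39 tumours, and H2-Ob was the least tightly bound. All 36 pairs passed a 2-sided permutation test with 100000 draws, adjusted by Benjamini-Hochberg over the 36, for Pearson's r and for Spearman's rho. Between the 28 pairs without H2-Ob, r ran from 0.793 to 0.983 and rho from 0.766 to 0.977, with the highest r for H2-Aa and H2-Eb1, and the largest permutation adjusted p for r was 1.2e-05, with 1e-05 the smallest raw p the draws can give. Between the 8 pairs with H2-Ob, r ran from 0.532 (Cd74) to 0.748 and rho from 0.451 to 0.666, and the largest permutation adjusted p was 0.00053 for r and 0.0045 for rho. Leaving out the 2 tumours farthest from the median of the first gene left r between 0.496 and 0.982 over the 36 pairs. Without tumours 6, 8 and 23, all 36 pairs still passed, and the r of H2-Ob with the others was 0.460 to 0.644.

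The fit along Ciita asked how much each gene changed per SD of the Ciita level, with limma on all genes and adjustment over all 18192 tested. Along Ciita 8 of the 8 other members rose, against 4.02% of all genes that rose, 4.78% that fell and 8.8% that changed in either direction. The steepest was H2-DMb2, at 1.63 ± 0.108 log2 per SD (SE, limma adjusted p = 5.0e-14). The H2-DM partner H2-DMa followed at 1.28 ± 0.0877. H2-Oa had a slope of 1.15 ± 0.116, H2-Ob 1.13 ± 0.175 and Cd74 1.10 ± 0.0868. The chains of the presenting molecules had the lowest slopes, 1.05 ± 0.0676 for H2-Eb1, 1.00 ± 0.0704 for H2-Ab1 and 0.86 ± 0.0634 for H2-Aa. This order depended on the probe sets used. With the mean of all probe sets H2-DMa was lowest, at 1.04. H2-Ob and H2-Eb1 were then at 1.06, H2-Ab1 at 1.07 and H2-Aa at 1.09. In the main fit the median slope of the 8 was 1.12, against -0.029 over all genes tested. The largest limma adjusted p of the 8 was 1.0e-04, that of H2-Ob, and all 8 passed in each of the alternatives run.

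**Figure D2:**
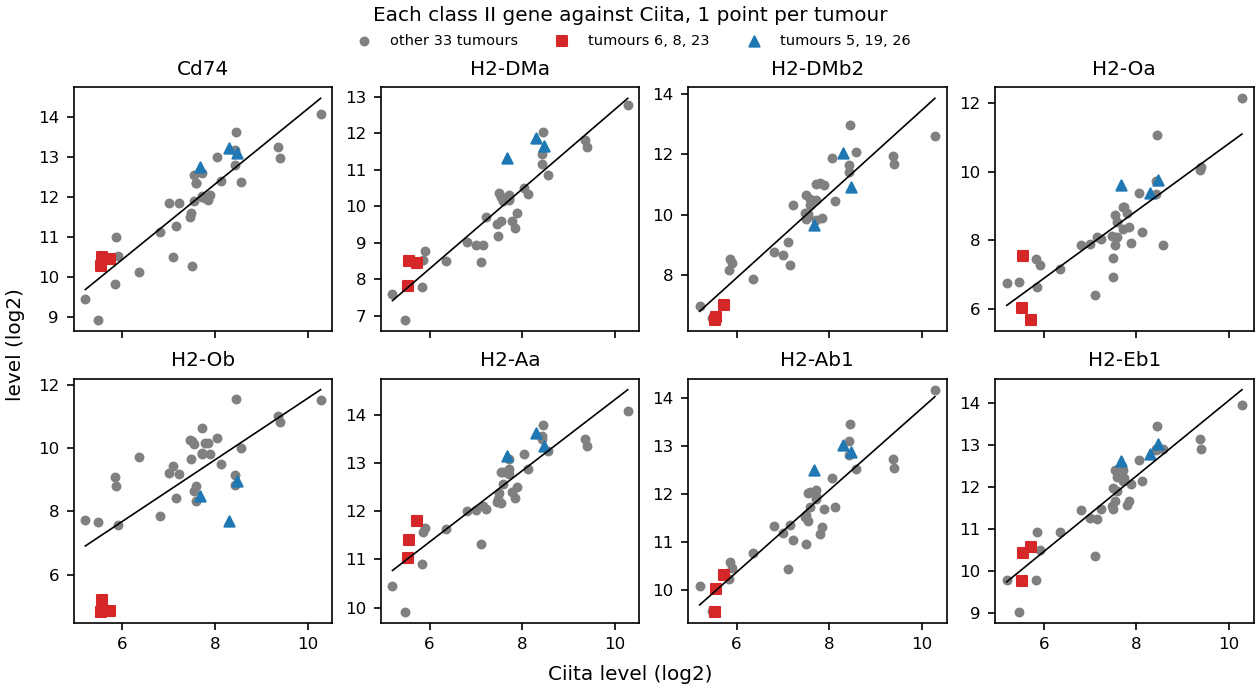
Level of each class II gene (log2, y axis) against the level of Ciita (log2, x axis), 1 point per tumour, with the least squares line over all 39. Tumours 6, 8 and 23 (squares) lie on or above the line for H2-Aa and far below it for H2-Ob, where their values are 4.84 to 5.19.

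The distance of single tumours from the Ciita line differed by gene. Residuals had an SD of 0.395 for H2-Aa, 0.420 for H2-Eb1 and 0.438 for H2-Ab1, the presenting chains, and of 0.721 for H2-Oa and 1.10 for H2-Ob. H2-Ob lay farthest below its line in tumours 6, 8, 5 and 23, with residuals of -2.56, -2.39, -2.21 and -2.07. In tumour 21, with a residual of 1.68, it lay farthest above. Cd74 was farthest from its line in tumour 13, with a residual of -1.57 and a level of 10.28, while H2-Aa there was 12.38, close to its median. Tumour 1 lay above the line for H2-Oa by 1.78 and for H2-DMb2 by 1.67, and tumour 2, with the highest Ciita, lay below it for H2-DMb2, at -1.24.

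The members followed Ciita also when scores for some other cells were held in the same model. The mature B, cytotoxic and plasmacytoid dendritic cell scores were not held. With the pan B, macrophage, T cell and conventional dendritic cell scores as further terms, 8 of 8 members rose along Ciita, against 0.546% of the 18140 genes tested that rose, 0.551% that fell and 1.1% that changed in either direction. The slopes were 1.50 ± 0.149 for H2-DMb2, 1.22 ± 0.0997 for H2-DMa, 1.17 ± 0.116 for Cd74, 1.05 ± 0.0965 for H2-Eb1, 0.92 ± 0.0840 for H2-Aa and 0.87 ± 0.0837 for H2-Ab1. The H2-O chains had the lowest slopes, 0.83 ± 0.147 for H2-Oa (limma adjusted p = 0.0029) and 0.73 ± 0.152 for H2-Ob (limma adjusted p = 0.012). Adding the interferon gamma response score as well left 8 of 8, with H2-Ob at 0.73 and a limma adjusted p of 0.013. H2-Ob did not pass with ranks in place of the scores (limma adjusted p = 0.051) or without tumours 2, 5, 6, 8, 19, 23 and 26 (limma adjusted p = 0.13).

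Along the pan B cell score H2-Ob was the 1 member of 9 that rose, against 14.7% of all genes that rose, 18% that fell and 32.7% that changed. As a count, 1 of 9 does not exceed the share over all genes. The slope of H2-Ob was 1.18 ± 0.166 log2 per SD (limma adjusted p = 5.0e-07). H2-DMb2 came next, at 0.60 ± 0.263, and did not pass (limma adjusted p = 0.076), nor did the other 7, whose adjusted p reached 0.85. The slope of H2-Ob rested on the tumours with low pan B scores. It was 0.42 without tumours 6, 8 and 23 (limma adjusted p = 0.095) and 0.34 within the main cluster, without tumour 2 as well (limma adjusted p = 0.34).

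Along the macrophage score, over 18 genes such as Adgre1 and Itgam, H2-Ob was the 1 member of 9 that fell, against 17.7% of all genes that fell, 18.3% that rose and 36% that changed. This count, too, does not exceed the share over all genes. The slope of H2-Ob was -0.66 ± 0.228 (limma adjusted p = 0.0198), and the other 8 had slopes between -0.20 and 0.14 and did not pass. This too changed with tumours 6, 8 and 23. Without them the 8 members other than H2-Ob rose, and H2-Ob had a slope of 0.26 (limma adjusted p = 0.26). With ranks the slope of H2-Ob was -0.41 and did not pass (limma adjusted p = 0.22). Whether the myeloid transcripts of these 3 tumours play a part in their H2-Ob level was not tested.

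**Figure D3:**
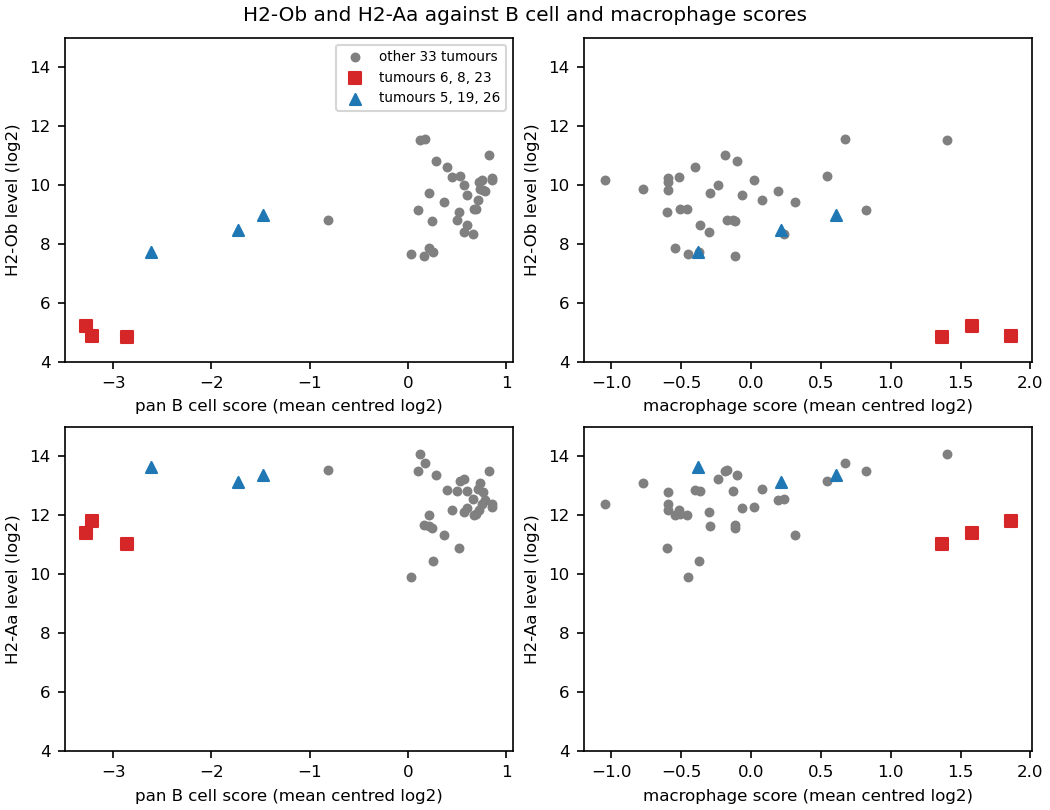
Levels of H2-Ob (top) and H2-Aa (bottom), log2, against the pan B cell score (left) and the macrophage score (right), 1 point per tumour. Tumours 6, 8 and 23 lie at 4.84 to 5.19 in H2-Ob with none of the other 33 below, and at 11.03 to 11.81 in H2-Aa with 7 of the 33 below.

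The H2-O and H2-DM chains were compared as differences of log2 levels within a tumour, with both scores. Of 4 relations none passed for r by a 2-sided permutation test adjusted over the 4, and 1 had a raw p under 0.05. That one, H2-Ob minus H2-DMb2 with the macrophage score, had r = -0.382 (permutation adjusted p = 0.068), r = -0.339 without the 2 farthest tumours, and rho = -0.500 (permutation adjusted p = 0.0068). H2-Oa minus H2-DMa with the same score gave r = -0.107 and rho = -0.196 (permutation adjusted p = 0.52 and 0.37). Within the 33 tumours of the main pan B cluster, the differences had r of 0.188 for H2-Ob and -0.199 for H2-Oa with the pan B score (permutation adjusted p = 0.40 for both).

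After these values were seen, H2-Ob was also set against each of the other 8 members. Each difference fell with the macrophage score, with r from -0.587 to -0.382 in 8 of 8 relations (permutation adjusted p from 0.0004 to 0.017 over the 8). Without tumours 6, 8 and 23 the r lay between -0.339 and -0.161, and 0 of 8 passed (permutation adjusted p from 0.15 to 0.35). With the probe set shared with a predicted gene in place of H2-Ob, 7 of 8 passed. With the pan B score within the 33 tumours, the same differences gave 2 of 8 that passed for r, H2-Ob minus H2-Oa (r = 0.455) and minus H2-Ab1 (r = 0.470; permutation adjusted p = 0.0268 for both). For rho 0 of 8 passed, with 1 raw p under 0.05, and without the 2 farthest tumours these r were 0.306 and 0.286. The 8 relations of a family share H2-Ob and the score, so they are not independent of each other.

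Along the precursor B cell score, built on 12 genes such as Rag1 and Il7r, no member passed in the limma fit, against 12.5% of all genes, 6.23% rising and 6.29% falling. An unadjusted p under 0.05 was found for 2 of the 9. H2-Ob had a positive slope, 0.43, and the other 8 negative ones, with a smallest limma adjusted p of 0.13. The sign of H2-Ob turned without tumours 6, 8 and 23, to -0.052, and without the 7 tumours, to -0.19. Without tumours 6, 8 and 23 the other 8 members had negative slopes with an unadjusted p under 0.05, and 0 of 9 passed after limma adjustment (smallest adjusted p = 0.053). Without tumours 1, 2, 18 and 27 H2-Ob rose, at 0.67 (limma adjusted p = 0.043).

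T cell genes and class II genes moved together. Along a score of 12 T cell genes such as Cd3g and Cd28, 9 of 9 members rose, against 7.85% of all genes that rose, 9.27% that fell and 17.1% that changed. Slopes ran from 0.58 for H2-Aa to 1.08 for H2-DMb2. H2-Oa had the smallest limma adjusted p, 3.0e-06 at a slope of 1.01 ± 0.145, and H2-Ob the largest, 0.034 at 0.68 ± 0.227. H2-Ob did not pass without tumour 2 (0.56, limma adjusted p = 0.17), without tumours 6, 8 and 23 (0.36, limma adjusted p = 0.091) or with ranks (limma adjusted p = 0.089), while the other 8 did. Without tumours 2, 5, 6, 8, 19, 23 and 26, Cd74 (limma adjusted p = 0.0996) and H2-Ob (limma adjusted p = 0.24) did not pass, and 7 of 9 rose. Without tumours 1, 2, 18 and 27, which hold the highest cytotoxic scores and the highest class II means, 4 of 9 rose. H2-DMa at 0.71 and H2-Oa at 0.59 were among the 4, and Ciita had a slope of 0.41 (limma adjusted p = 0.15).

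Along the interferon gamma response score, over 11 genes such as Cxcl9, Iigp1 and Gbp2, 8 of 9 members rose, against 14.3% of all genes that rose, 19.4% that fell and 33.7% that changed. The slopes of the 8 lay between 0.50 for H2-Aa and 0.92 for H2-Oa (limma adjusted p = 2.3e-05 for H2-Oa). H2-Ob had a slope of 0.34 ± 0.245 and did not pass (limma adjusted p = 0.29). Without tumours 6, 8 and 23 it rose as well, at 0.48 (limma adjusted p = 0.015), so that 9 of 9 passed. H2-DMb2 did not pass without tumour 2 (0.58, limma adjusted p = 0.11) or with ranks (0.57, limma adjusted p = 0.11). Without tumours 2, 5, 6, 8, 19, 23 and 26, 8 of 9 rose. No call stood without tumours 1, 2, 18 and 27: 0 of 9 passed in limma, and 2 of 9 had an unadjusted p under 0.05. That setting kept tumours 6, 8 and 23, and no setting left out both sets. Tumours 1, 2, 18 and 27 were chosen from scores that earlier results of these data showed.

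Along the level of Myc 2 of 9 members fell, against 17.2% of all genes that fell, 18.8% that rose and 36% that changed. As a count, 2 of 9 is near the share over all genes. The 2 were H2-Oa, at -0.62 ± 0.193 (limma adjusted p = 0.010), and H2-DMa, at -0.53 ± 0.204 (limma adjusted p = 0.040). Ciita had a slope of -0.38 ± 0.176 and did not pass (limma adjusted p = 0.089). Myc was 8.19 in tumour 2, 10.58 in the next lowest and 12.63 in the highest tumour, with a median of 11.92. The 7 tumours with the lowest Myc were 2, 8, 18, 23, 6, 1 and 27. They are tumours 6, 8 and 23 and the 4 with the highest class II means. The macrophage score lay at 1.36 to 1.86 in tumours 6, 8 and 23. Of the 4 others, tumour 2 lay in that range, at 1.40. Tumours 1, 18 and 27 lay below it, at 0.67, -0.18 and -0.10. Without tumours 6, 8 and 23, 9 of 9 fell, H2-Ob at -0.52 (limma adjusted p = 0.0075). Without tumour 2, 0 of 9 passed in limma and 0 of 9 had an unadjusted p under 0.05. Without tumours 1, 2, 18 and 27 H2-Ob rose, at 0.89 (limma adjusted p = 5.2e-04). Without those 4 tumours all 9 slopes along Myc were positive, from 0.025 for H2-Aa, and with all 39 tumours all 9 were negative.

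**Figure D4:**
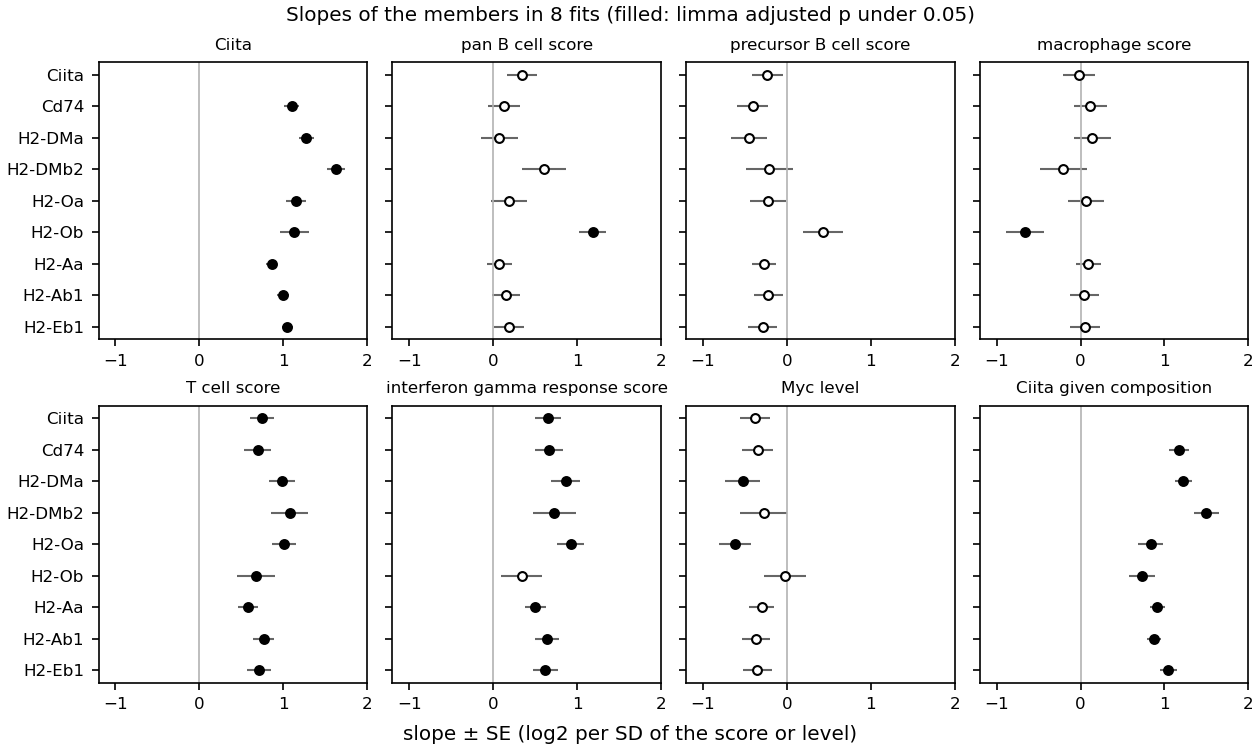
Slope with its SE (x axis, log2 per SD of the score or level) for each of the 9 genes in the 8 limma fits over 39 tumours, filled where the adjusted p was under 0.05. Along Ciita 8 of 8 members are filled and positive, along the pan B score only H2-Ob is filled, and along the T cell score all 9 are filled.

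Of 10 other genes of the pathway tested, 1 rose and 1 fell along Ciita, against 4.02% of all genes that rose and 4.78% that fell. The median slope of the 10 was 0.14. H2-Eb2, a second H2-E beta gene, rose by 0.49 ± 0.0839 log2 per SD (limma adjusted p = 3.2e-04), with levels from 6.21 to 9.31. Marchf8, a ubiquitin ligase that removes class II and other proteins from the cell surface, had a slope of -0.31 ± 0.102 (limma adjusted p = 0.046). Ctss, the protease that trims Cd74, had a slope of 0.21 and did not pass (limma adjusted p = 0.28).

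H2-Ea, the alpha chain that pairs with H2-Eb1, stayed nearly level while its partner varied. Its slope along Ciita was -0.022 (limma adjusted p = 0.76), and its probe set with the highest mean lay at 7.18 ± 0.24 (SD, n = 39), from 6.65 to 7.80. The other probe sets were dimmer, at 4.12 ± 0.26 and 2.53 ± 0.12, and correlated with the first at 0.300 and 0.0151, in contrast to the probe sets of the members. Some mouse strains carry an H2-Ea allele that is not transcribed, and the labels give no strain.

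Among the genes of 10 proteins that form the promoter complex or work with it, 1 rose along Ciita, against 4.02% of all genes. Their median slope was 0.014. Rfx5, the subunit of RFX that contacts the X box, had a slope of 0.23 ± 0.0544 (limma adjusted p = 0.0066). The other RFX subunits did not pass, Rfxap at 0.034 and Rfxank at -0.019 (limma adjusted p = 0.79 and 0.88). The NF-Y subunits Nfya, Nfyb and Nfyc did not pass either.

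Of 13 candidate regulators of Ciita tested, 2 rose, against 4.02% of all genes, with a median slope of 0.16. Irf8, a transcription factor of B cells and myeloid cells, rose by 0.62 ± 0.111 (limma adjusted p = 5.1e-04). Irf1, which interferon gamma induces, rose by 0.44 ± 0.117 (limma adjusted p = 0.017). Prdm1, a repressor of Ciita in plasma cells, had a positive slope of 0.56 that did not pass (limma adjusted p = 0.071), and Pax5 a slope of 0.19 (limma adjusted p = 0.35).

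Genes of MHC class I, which presents peptides from inside the cell, also rose with Ciita. Of 12 genes of the class I pathway 9 rose, against 4.02% of all genes. Their median slope was 0.27 and their highest 0.62, under the lowest slope among the class II members, 0.86. The steepest were Nlrc5, the relative of Ciita that drives class I genes, at 0.62 ± 0.125 (limma adjusted p = 0.0019), and Tap1, a subunit of the peptide transporter, at 0.55 ± 0.0778 (limma adjusted p = 2.2e-05). H2-K1 rose by 0.24 and H2-D1 by 0.22. B2m, the light chain of class I, had a slope of 0.11 and did not pass (limma adjusted p = 0.15).

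With the composition scores in the model, most of these calls were absent. Of the 4 pathway lists Irf8 alone rose, at 0.64 ± 0.140 (limma adjusted p = 0.016), and Marchf8 alone fell, at -0.52 ± 0.115 (limma adjusted p = 0.018). Over all genes 0.546% rose and 0.551% fell in this model. Rfx5 had a slope of 0.27 ± 0.0770 (limma adjusted p = 0.068), Irf1 0.052 (limma adjusted p = 0.85), Tap1 0.24 (limma adjusted p = 0.17) and Nlrc5 0.31 (limma adjusted p = 0.37). In the same model 8 of 8 members rose, as given above.

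**Figure D5:**
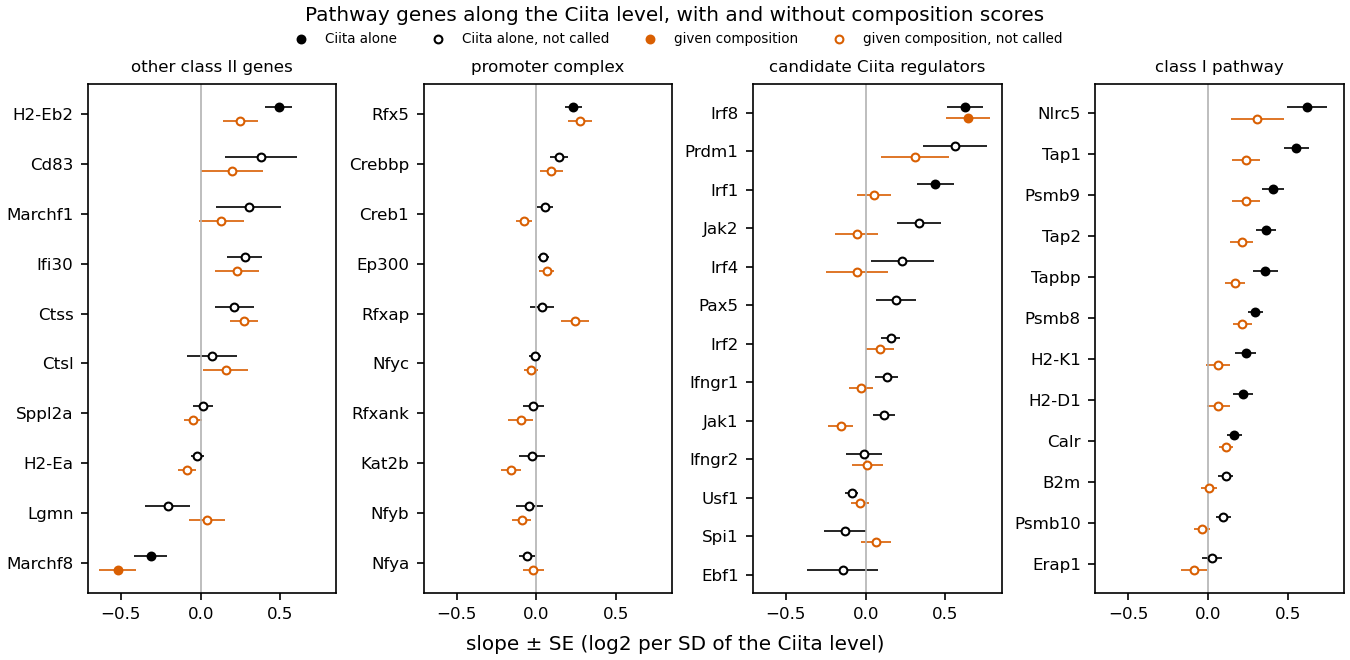
Slope with its SE along the Ciita level (x axis, log2 per SD) for other class II genes, the promoter complex, candidate regulators of Ciita and class I genes, alone (black) and with 4 composition scores in the model (orange), filled where the limma adjusted p was under 0.05. In orange only Irf8 (0.64) and Marchf8 (-0.52) are filled.

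Cell type genes also moved with Ciita, along which 4.02% of all genes rose and 4.78% fell. Along the Ciita level 7 of 10 mature B cell genes rose, as did 9 of 12 T cell genes, 6 of 10 cytotoxic genes and 9 of 11 interferon gamma response genes, with median slopes of 0.78, 0.49, 0.55 and 0.61. Of the pan B cell genes 2 of 11 rose, and of the macrophage genes 2 of 18 rose and 1 fell. The part of these cells in the class II levels was not tested beyond the model with composition scores. That model held no mature B or cytotoxic score.

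The genes most like the 9 were ranked by Pearson's r with the mean of the 9 over 39 tumours, as a description. The highest were Slc9a7 (0.791), Ly6e (0.783), P2ry10 (0.779), Il18bp (0.778), Tg (0.778), Hpse (0.772), Fcmr (0.768), Tap1 (0.766), Trpm2 (0.762) and Rab30 (0.752). With the same mean, which holds the member itself, H2-Ob had r = 0.728, below all 10, and the other 8 members had r from 0.905 (H2-Oa) to 0.973 (H2-Eb1). Within the 32 tumours that exclude tumours 2, 5, 6, 8, 19, 23 and 26, Tg and Fcmr had the highest r of the 10, 0.830 and 0.789. Genes that ran opposite were Etfa (-0.765), Ctu1 (-0.741), Inka1 (-0.726), Map1s (-0.726), Snx1 (-0.723), Idh3b (-0.721), Pyurf (-0.719), Tefm (-0.701), Zfp768 (-0.697) and Gng8 (-0.693). Etfa and Idh3b encode mitochondrial enzymes of electron transfer and the citrate cycle, and both varied little, with SDs of 0.19 and 0.18. These r values share the arrays, their normalization and the tissue's composition.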

How the data were processed

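RNA of 39 Eµ-myc lymphomas was measured on 1 array each. The deposited values are log2 levels per probe set that the authors made with RMA (package affy), as the submitters' processing notes list; no version or filter is stated. RMA quantile normalizes arrays (medians 5.61 to 5.78), which hides changes in total RNA and compresses dim genes. Precision is limited by the number of arrays. The annotation named 1 gene for 34945 of 45101 probe sets, several for 932, and 9211 were unlisted; 34741 matched a RefSeq gene by Entrez identifier.

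Every gene was fitted with limma 3.58.1 (R 4.3.3; lmFit, eBayes with trend) on a level or score divided by its SD, 2-sided, with Benjamini-Hochberg adjustment over all genes, threshold 0.05; a score's own genes were dropped from its fit. A score is the mean over a list of log2 levels minus each gene's mean. Clusters used mclust 6.1.1 (BIC gain over 10, at least 3 tumours). The fit was tested on simulated data. Of 179 entries in 16 lists, 167 were measured and the rest not analysed here.

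Named genes were all members, measured genes of 4 pathway lists, up to 3 markers of largest SD per list, Myc, and the 10 genes most and least like the members; predicted genes and clones were passed over. The members and lists were chosen with earlier results of these data known. Alternatives changed the gene level, dim-gene filter, variance model, score scale and tumours held. Leaving out tumours 1, 2, 18 and 27, adding the interferon score, and setting H2-Ob against the other 8 members were added after seeing the data. Along Ciita 4.02% of all genes rose and 4.78% fell. In that fit the lists not described in the text gave 1 fall in 12 precursor B and 1 rise in 8 plasma cell genes. There were 3 rises in 11 conventional and 1 in 6 plasmacytoid dendritic cell genes. Fibroblast genes gave 2 falls in 6, and 7 neutrophil genes gave no call.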

Additional observations from a re-analysis of the deposited data

How the results depend on the processing

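Of 77 values of the main results under alternative settings, 63 kept their direction and their side of the threshold, or stayed within 1.5 times of a count. Along the pan B score 0 passed in limma without tumours 6, 8 and 23 (3 at an unadjusted p under 0.05) and 0 without tumours 2, 5, 6, 8, 19, 23 and 26 (1 unadjusted). Along the precursor B score 1 rose without tumours 1, 2, 18 and 27. Along the macrophage score 0 passed with ranks (0 unadjusted), 8 without tumours 6, 8 and 23, and 0 without the 7 tumours (6 unadjusted). Without tumours 1, 2, 18 and 27, 4 passed along the T cell score and 0 along the interferon gamma score (2 unadjusted). Along Myc 4 fell with the mean of probe sets, 0 with ranks (3 unadjusted), 9 without tumours 6, 8 and 23, 7 without the 7 tumours and 0 without tumour 2 (0 unadjusted), and 1 rose without tumours 1, 2, 18 and 27. Along the macrophage score the slopes of Ciita, H2-DMb2 and H2-Ob changed sign without tumours 6, 8 and 23 (0.52, 0.65 and 0.26) and without the 7 tumours (0.31, 0.56 and 0.13). Along Myc all 9 slopes changed sign without tumours 1, 2, 18 and 27, among them those of H2-DMa (0.055), H2-Oa (0.12) and H2-Ob (0.89), of which only H2-Ob passed. The cause was not tested. Over all genes the count called along Ciita was 1601, from 807 without tumour 2 to 4111 without tumours 6, 8 and 23. It was 199 with composition scores (42 to 350 over the alternatives), 5943 along pan B (419 to 6932), 2277 along precursor B (45 to 3179) and 6537 along the macrophage score (372 to 6672). It was 3113 along the T cell score (575 to 6120), 6132 along interferon gamma (2816 to 6608) and 6549 along Myc (2195 to 6626). With 1 group and 1 array per tumour, no contrast between conditions could be made. No paired analysis was possible because the labels give 1 group.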
